A study of Homo sapiens with 24 samples.

Results

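MS275 brought reads from 61 named genes that gave almost none in vehicle-treated neurons. The genes were chosen on raw counts per megaread of the library total (CPM). A member averaged under 0.2 CPM over the 3 DMSO libraries and reached at least 1 CPM in each of the 3 MS275 libraries. Of 58051 genes in the table, 84 met both thresholds. The 21 genes without a gene symbol and 2 developmental regulators of gene families that were set aside (PAX7 and IRX4) were left out. Without MS275 library 3, 103 genes would have met the rule. The 61 members made up 0.3% of the 20367 named genes that were silent by the DMSO threshold. Because these levels chose the genes, the MS275 and DMSO values of the members are given below as a description, with no test. The rule also keeps the MS275 and DMSO libraries of every member from overlapping, since a mean under 0.2 CPM over 3 libraries allows no DMSO library to reach 1 CPM.

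The libraries were made from LUHMES, an immortalised precursor line of the human mesencephalon, after differentiation into neurons of dopaminergic type. The groups were MS275 at 5 µM (entinostat, which inhibits histone deacetylases of class I), paraquat at 5 µM (a redox-cycling herbicide), MPP at 5 µM (1-methyl-4-phenylpyridinium), ziram at 2 µM (a zinc dithiocarbamate fungicide), rotenone at 1 µM (an inhibitor of mitochondrial complex I), 6-HD at 1 µM (6-hydroxydopamine), methylmercury at 0.5 µM (as the chloride) and DMSO at 1% by volume. Every culture was exposed for 6 h, toxicant stocks were in DMSO, and each of the 8 groups had 3 libraries of polyadenylated RNA. All cultures came from the same cell line, and nothing in the labels says that the 3 cultures of a group were grown apart, so p-values measure the spread between these samples. The dopamine transporter gene SLC6A3 averaged 1023 ± 116 CPM in MS275 and 635 ± 53.3 CPM in DMSO (SD, n = 3 each), while the midbrain regulators FOXA2 and LMX1A had 0 reads in either group. Library totals ran from 14350889 to 30000031 reads in MS275, from 9688650 to 46863890 reads over all 24 libraries and from 14290671 to 33365035 reads in DMSO. These are bulk samples, in which more cells of a type and more RNA per cell cannot be told apart.

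Histone deacetylases take acetyl groups off histone tails, and tails without them go with compact, poorly transcribed chromatin. The class I enzymes HDAC1, HDAC2 and HDAC3 act inside corepressor complexes such as SIN3, NuRD and CoREST, which transcription factors bring to their target genes. MS275 is a benzamide that occupies the active site of these enzymes, and genes kept off by such complexes are known to gain acetylation and transcripts when the enzymes are blocked.

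The 4 genes that mark the group are HS3ST6, SUSD3, ARSI and RASD2, and a promoter window of each is shown as a description. The lines give the 250 bases before the RefSeq transcription start on the strand of the gene (GRCh38.p14), 5′ to 3′. Capitals mark the GC box GGGCGG, the core of sites bound by SP1-type factors, on either strand (CCGCCC on the other). The windows are chr16:1918416-1918665 (minus strand) for HS3ST6, chr9:93058451-93058700 (plus) for SUSD3, chr5:150302906-150303155 (minus) for ARSI and chr22:35532556-35532805 (plus) for RASD2.
HS3ST6: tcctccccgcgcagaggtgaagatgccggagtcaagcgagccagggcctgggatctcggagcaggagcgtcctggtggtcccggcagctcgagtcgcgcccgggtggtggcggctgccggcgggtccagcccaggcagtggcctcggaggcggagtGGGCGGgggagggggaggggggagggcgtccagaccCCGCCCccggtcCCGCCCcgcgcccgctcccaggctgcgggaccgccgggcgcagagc
SUSD3: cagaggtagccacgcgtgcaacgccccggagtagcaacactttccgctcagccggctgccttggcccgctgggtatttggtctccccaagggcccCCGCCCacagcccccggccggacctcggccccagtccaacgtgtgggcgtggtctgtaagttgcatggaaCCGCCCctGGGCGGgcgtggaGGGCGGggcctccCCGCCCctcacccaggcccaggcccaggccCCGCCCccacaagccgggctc
ARSI: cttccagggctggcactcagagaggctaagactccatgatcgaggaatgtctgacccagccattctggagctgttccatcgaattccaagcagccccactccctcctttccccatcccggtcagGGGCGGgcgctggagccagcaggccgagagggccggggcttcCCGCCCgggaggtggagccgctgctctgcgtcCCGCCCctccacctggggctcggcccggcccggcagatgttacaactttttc
RASD2: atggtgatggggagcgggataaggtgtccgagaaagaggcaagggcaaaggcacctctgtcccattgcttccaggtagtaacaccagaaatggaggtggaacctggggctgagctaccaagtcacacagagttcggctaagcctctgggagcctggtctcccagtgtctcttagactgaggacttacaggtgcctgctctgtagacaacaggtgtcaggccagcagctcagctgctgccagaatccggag
The GC box occurred 3 times in the HS3ST6 window, 6 times in SUSD3 and 3 times in ARSI, and RASD2 had 0. The same windows held 28, 20, 15 and 4 CpG dinucleotides in that order of genes, against a median of 11 (quartiles 3 and 23) over all 35116 RefSeq promoters of that length. A GC box was present in 42.6% of those promoters. 4 other motifs were searched on both strands and were in 0 of the 4 windows. The CAAT box, spelled CCAAT, was in 32.0% of all promoters. The TATA box, spelled TATAAA, was in 10.7% of them. The E-box spelled CACGTG was in 6.34%, and the cyclic AMP response element, spelled TGACGTCA, was in 1.65%. The RefSeq start used for RASD2 lies upstream of the GENCODE 29 gene span (chromosome 22, 35540868 to 35554001, plus strand), and that of ARSI lies inside its span (chromosome 5, 150296343 to 150339307, minus strand). Which starts these cells used was not tested, so the lack of a GC box in the RASD2 window may not hold for the start in use. Only 40 of the 61 members had an entry in the promoter table, so a comparison of promoter sequence over the members is void and none is given.

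SUSD3 (chromosome 9, 93058688 to 93085138), a membrane protein with a sushi domain, gave 312, 360 and 135 reads in the MS275 libraries and 0, 7 and 3 reads in the DMSO libraries. Scaled to depth these were 13.1, 12.0 and 9.41 CPM in MS275, against 0, 0.284 and 0.0899 CPM in DMSO. The lowest MS275 library stood far above the highest of the 21 others, which was 0.960 CPM in 6-HD library 3. The ratio of summed reads was 85.7 (exact 95% counting interval 46.3 to 179). Counting intervals here cover counting error at most, with each read taken as an independent count. The reads carried no stated molecular identifiers, so that independence was not tested. The intervals also leave out the choice of the genes on these same libraries, so no interval is read as a test of a difference.

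ARSI encodes arylsulfatase I, a member of the sulfatase family. It gave 260, 366 and 88 reads in MS275 (10.9, 12.2 and 6.13 CPM) and 0, 2 and 10 reads in DMSO (0, 0.0810 and 0.300 CPM). The third MS275 library was again the lowest, and the ratio was 63.2 (counting interval 35.9 to 123). Over the 18 libraries of the 6 other toxicants ARSI reached at most 0.412 CPM.

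RASD2, also called Rhes, is a small GTPase of the Ras family known from the striatum. Its reads numbered 202, 222 and 71 in MS275 (8.49, 7.40 and 4.95 CPM), against 3, 5 and 5 in DMSO (0.210, 0.203 and 0.150 CPM). The ratio was 40.4 (23.4 to 76.4), and the 3 DMSO libraries were alike in level. The 6-HD libraries held 0.274, 0 and 1.15 CPM, so 6-HD library 3 alone passed the level that defines the members in MS275.

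HS3ST6 (chromosome 16, 1911463 to 1918440, minus strand) encodes a sulfotransferase that adds 3-O-sulfate groups to heparan sulfate. It was the only member with 0 reads in all 3 DMSO libraries. MS275 libraries held 119, 122 and 28 reads, or 5.00, 4.07 and 1.95 CPM. With 0 reads in DMSO the ratio has no finite value, and its counting interval runs from 76.9 with no upper limit. Putting 3 reads in place of 0 for DMSO gave a ratio of 95.2, which is not a lower limit. In the 6 other toxicants HS3ST6 stood between 0 and 0.495 CPM per library, with 0 reads in 5 of 18 libraries.

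**Figure D1:**
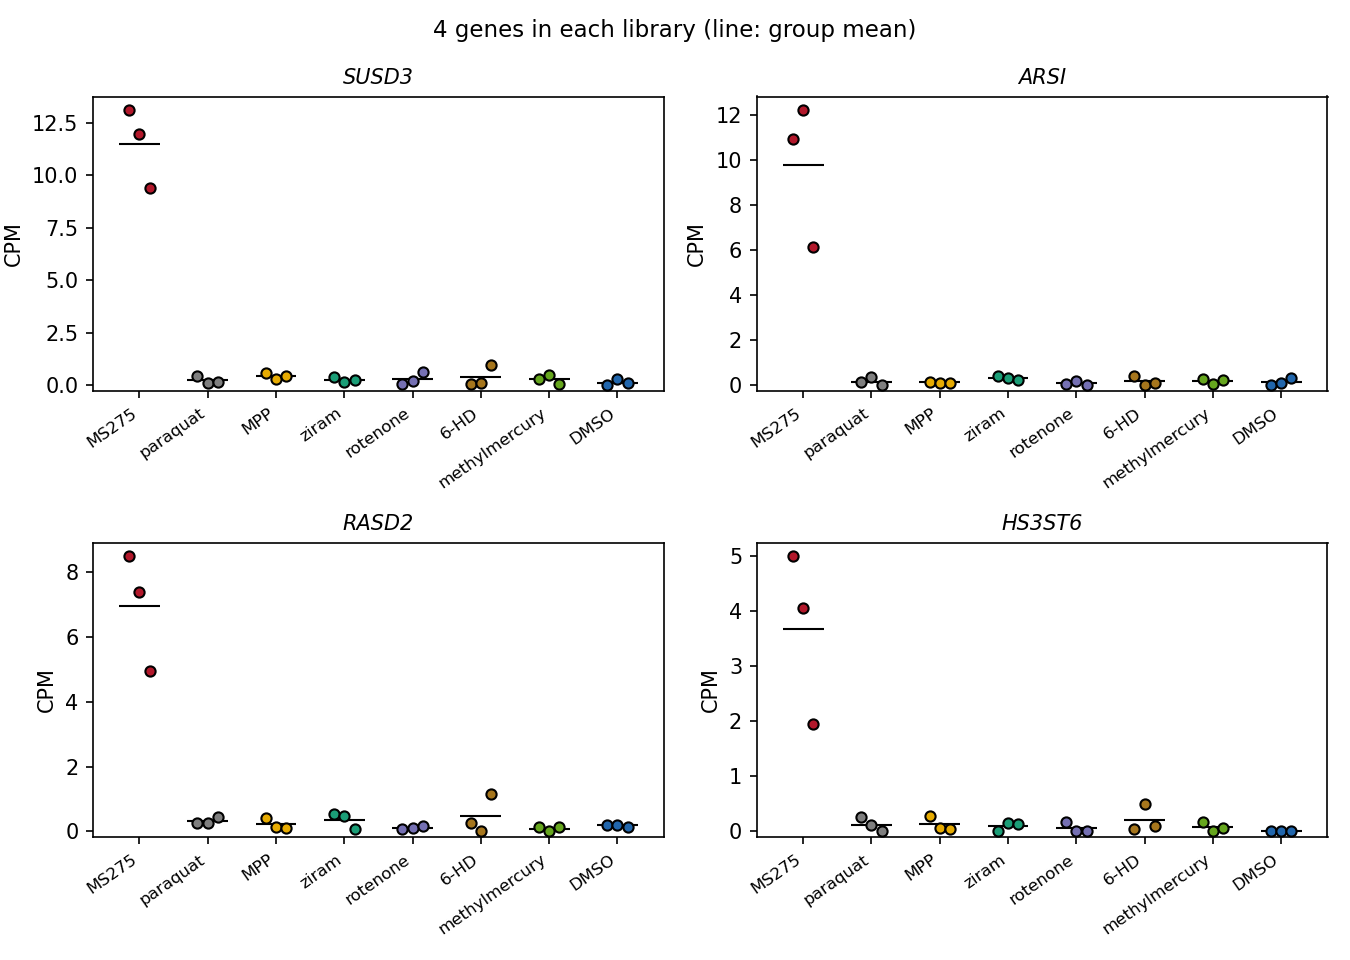
CPM of SUSD3, ARSI, RASD2 and HS3ST6 in each of the 24 libraries (points) with the group mean (line), each panel on its own linear axis. The 3 MS275 points of each gene lie above all 21 others, and the third MS275 library is the lowest of the 3 in every panel.

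Per kilobase of exon, SUSD3 was the most abundant of the 61 genes in MS275 at 9.11 CPM per kb. It was followed by the non-coding RNA LINC01647 at 3.12, ARSI at 2.98, the non-coding RNA LINC01942 at 2.94, HS3ST6 at 2.88, the antisense RNA GPC6-AS1 at 2.18 and RASD2 at 2.04 CPM per kb. The other members ranged down to 0.102 CPM per kb. Most members were low even when on: the mean level in MS275 was 1.18 to 11.5 CPM with a median of 1.72 CPM, 9 genes reached 3 CPM and 42 stayed under 2 CPM. Reads over the 3 MS275 libraries numbered 78 to 807 per gene (median 118), against 0 to 17 in DMSO (median 10). The ratio of MS275 to DMSO ranged from 6.62 to 146 with a median of 13.6 over the 60 genes with a DMSO read.

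The third MS275 library, the shallowest of the 3 at 14350889 reads, held less of the most abundant members. Its level over the mean of the other MS275 libraries had a median of 0.855 over the 61 genes and a range of 0.430 to 1.47. Below 0.6 were HS3ST6 at 0.430, the kinase gene BMX at 0.462, ARSI at 0.530, LINC01647 at 0.547, CD5 at 0.572 and FAM151A at 0.588, which were singled out after their values were seen. The spread over the MS275 libraries, as SD over mean, ran from 1.89% to 46.2% with a median of 18.1%.

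Other enzymes among the members were ADH1C, OSGIN1, ALDH3B1 and CDK15. ADH1C, a class I alcohol dehydrogenase of liver, had 74, 83 and 32 reads in MS275 (3.11, 2.77 and 2.23 CPM) and 1, 2 and 2 reads in DMSO (0.0700, 0.0810 and 0.0599 CPM). OSGIN1, a growth inhibitor induced by oxidative stress, had 2.94, 3.07 and 2.23 CPM in MS275 and 0.210, 0.284 and 0 CPM in DMSO. The 3 MS275 libraries of both genes were within 2.23 to 3.11 CPM. ADH1C shares 103 exon bases and much of its sequence with ADH1B, so the share of its reads is uncertain.

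The 8 transcription factors among the members were BARX1, LMX1B, EPAS1, TFAP2C, CREB3L3, VENTX, NEUROG3 and ZNF831. BARX1, a homeobox factor of teeth and stomach, led them with 2.86, 3.20 and 2.23 CPM in MS275 against 0.140, 0 and 0.450 CPM in DMSO. LMX1B, a LIM homeobox factor needed for midbrain dopaminergic and serotonergic neurons, had 2.18, 2.00 and 1.53 CPM in MS275 and 0, 0.0405 and 0.0599 CPM in DMSO. In both genes the third MS275 library was the lowest. NEUROG3, the factor that starts endocrine differentiation in the pancreas, had 30, 42 and 18 reads in MS275 and 1 read in each DMSO library, a ratio of 31.8 (10.6 to 157). EPAS1, the hypoxia-inducible factor HIF-2 alpha, had a lower ratio of 8.49 (5.03 to 15.3).

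The 8 members known from blood and immune cells were BMX, LRRC32, CD5, SNX20, MR1, CD6, IL2RB and MMRN1. BMX, a non-receptor tyrosine kinase of the TEC family found in endothelium and bone marrow, had 4.29, 4.17 and 1.95 CPM in MS275 and 0, 0.122 and 0.0899 CPM in DMSO. LRRC32, the GARP protein that holds latent TGF-beta on regulatory T cells, had 2.48, 3.10 and 2.72 CPM in MS275 and 0.280, 0.162 and 0.150 CPM in DMSO. CD5 and CD6, related scavenger receptors of T cells, are neighbours on chromosome 11, 82018 bases apart. CD5 averaged 1.78 ± 0.565 CPM in MS275 and 0.140 ± 0.121 CPM in DMSO, and CD6 averaged 1.48 ± 0.344 CPM in MS275 and 0.0568 ± 0.0150 CPM in DMSO (SD, n = 3 each).

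Among secreted and matrix proteins, ADAMTS2, the protease that trims procollagen, had 3.11, 3.77 and 2.79 CPM in MS275 and 0.0700, 0.122 and 0.330 CPM in DMSO. PCSK1, the convertase that processes prohormones, had 1.85, 3.63 and 2.02 CPM in MS275 and 0.0700, 0.324 and 0.180 CPM in DMSO. LAMA3, the alpha chain of the laminin of epithelial basement membranes, had 2.31, 1.73 and 2.30 CPM in MS275 and 0, 0.162 and 0.330 CPM in DMSO. PCSK1 was uneven over the MS275 libraries, with the second the highest. The other members of this class were WISP1, C1QTNF2, GPHA2 and FAM19A3, and the class as a whole had ratios with a median of 11.1.

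Transporters and receptors were led by ABCC3, an efflux pump for conjugated bile salts and drugs. ABCC3 had 5.63, 3.00 and 2.65 CPM in MS275 and 0, 0 and 0.180 CPM in DMSO. SLC1A7, the glutamate transporter EAAT5 of the retina, had 62, 52 and 24 reads in MS275 and a single read in DMSO library 3. That gave the highest ratio among the members with a DMSO read, 146, with a counting interval of 25.9 to 5827. P2RY2, a nucleotide receptor, had 2.02, 2.23 and 1.46 CPM in MS275 against 0.140, 0.203 and 0.120 CPM in DMSO. The water channel AQP4 of astrocytes had 1.26, 2.43 and 1.88 CPM in MS275 and 0.280, 0.0810 and 0.120 CPM in DMSO.

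The remaining protein-coding members included PROSER2, a proline- and serine-rich protein, with 3.45, 4.50 and 3.83 CPM in MS275 and 0.140, 0.162 and 0.120 CPM in DMSO. FAM151A had 47, 83 and 20 reads in MS275 and 1, 0 and 1 reads in DMSO, a ratio of 79.6 with an interval of 21.7 to 663. Its exons share 760 bases with ACOT11 on the opposite strand, and the strand setting of the counting is not given, so reads of the 2 genes cannot be told apart there. In all, 13 of the 61 members overlapped exons of another gene, 5 on the same strand and 9 on the opposite strand. Of the 61 genes 50 were protein-coding in GENCODE 29 and 11 were non-coding RNAs or pseudogenes.

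LINC01647 had 5.80, 3.63 and 2.58 CPM in MS275 and 0, 0.0810 and 0.0599 CPM in DMSO, the highest level among the non-coding members. LY86-AS1 was ordered the other way over the MS275 libraries, with 2.23, 2.70 and 3.21 CPM, against 0.0700, 0.284 and 0 CPM in DMSO. LINC00269 had 2.39, 2.10 and 1.67 CPM in MS275 and 0, 0.203 and 0.210 CPM in DMSO. CSPG4P13 and ACTBP13 are pseudogenes with close relatives elsewhere in the genome, so the source of their reads is uncertain.

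**Figure D2:**
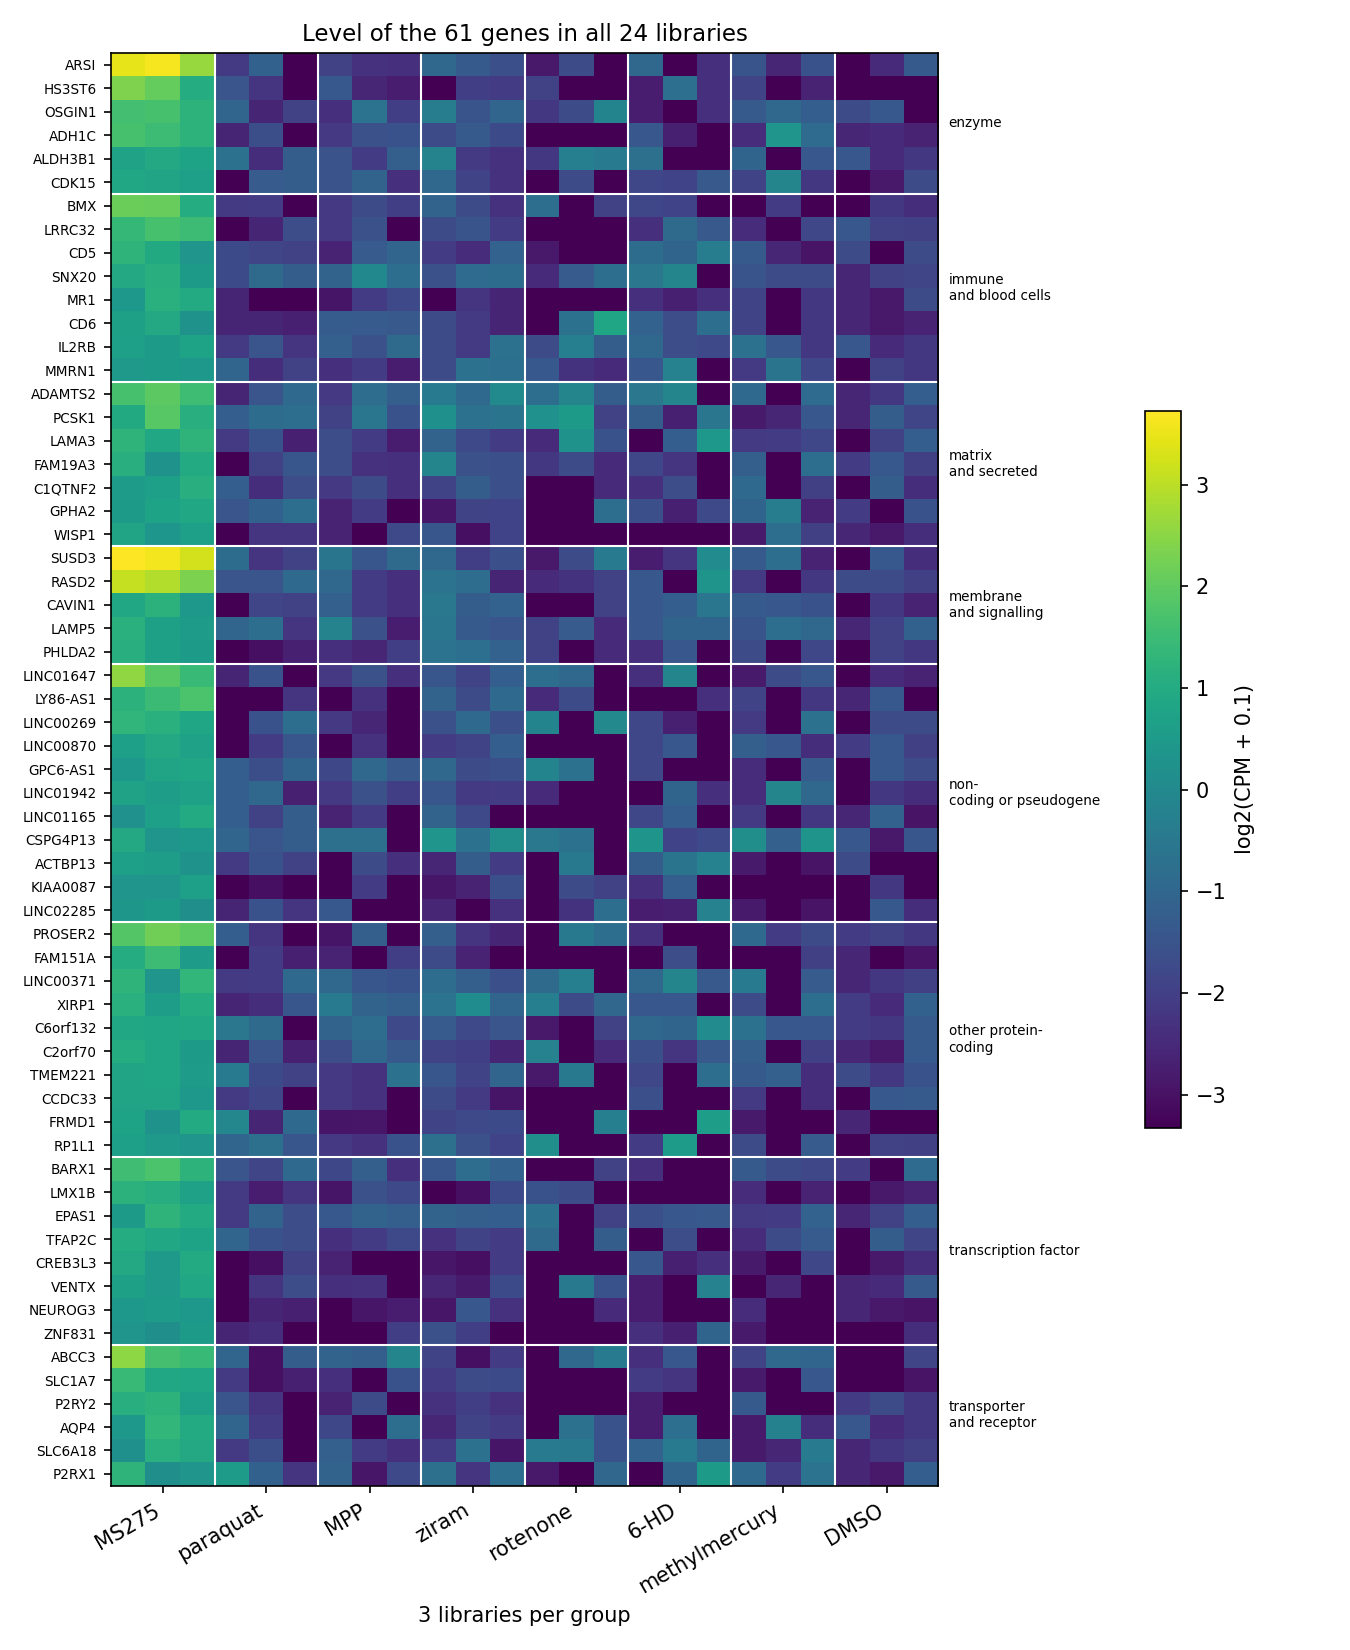
Level of each of the 61 genes (rows, grouped by role and ordered by reads in MS275) in each of the 24 libraries (columns, 3 per group), as log2(CPM + 0.1). The 3 MS275 columns are bright in every row, and single brighter cells elsewhere, as in CD6 for rotenone or CSPG4P13 for ziram, are scattered over genes and libraries.

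At the thresholds, the members closest to the DMSO limit were LRRC32 and LAMP5, both at a DMSO mean of 0.197 CPM. HSPB8 at 0.201 CPM and ITPR3 at 0.204 CPM fell just outside it. P2RX1 and ZNF831 were the members closest to the MS275 limit, with a lowest MS275 library of 1.03 CPM each. ABCA9 and LINC01010 missed it, with a lowest MS275 library just under 1 CPM. Of the 20367 named genes silent in DMSO, 18983 (93.2%) also averaged under 0.2 CPM in MS275, 1249 (6.13%) lay between 0.2 and 1 CPM and 135 (0.663%) averaged at least 1 CPM. The mirror image of the rule, at least 1 CPM in each DMSO library and a mean under 0.2 CPM in MS275, was met by 0 of 12748 genes.

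The same rule applied to the other toxicants found few genes and 0 of the 61. Of the 20367 silent named genes, 0 (0.0%) met it in paraquat, 1 (0.00491%) in MPP, 7 (0.0344%) in ziram, 2 (0.00982%) in rotenone, 0 (0.0%) in 6-HD and 2 (0.00982%) in methylmercury. The 7 genes in ziram were the heat shock gene HSPA6 and the metallothionein genes MT1A, MT1E, MT1G, MT1H, MT1L and MT1M. MT1G was the gene in MPP, and MT1E and MT1G were those in rotenone and in methylmercury.

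Summed over the 61 genes, the level was 153, 148 and 123 CPM in the MS275 libraries. It was 13.3, 11.5 and 10.6 CPM in paraquat, 11.6, 12.7 and 10.3 CPM in MPP, 18.9, 14.5 and 14.6 CPM in ziram, and 11.6, 14.2 and 12.6 CPM in rotenone. It was 12.2, 15.2 and 16.03 CPM in 6-HD, 12.7, 10.8 and 13.4 CPM in methylmercury and 4.90, 7.82 and 9.53 CPM in DMSO. All 18 libraries of the other toxicants lay above all 3 DMSO libraries and far below MS275. The DMSO libraries were chosen to be low in these genes, so the rule favours their place at the bottom. How much of the gap comes from that choice was not tested.

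**Figure D3:**
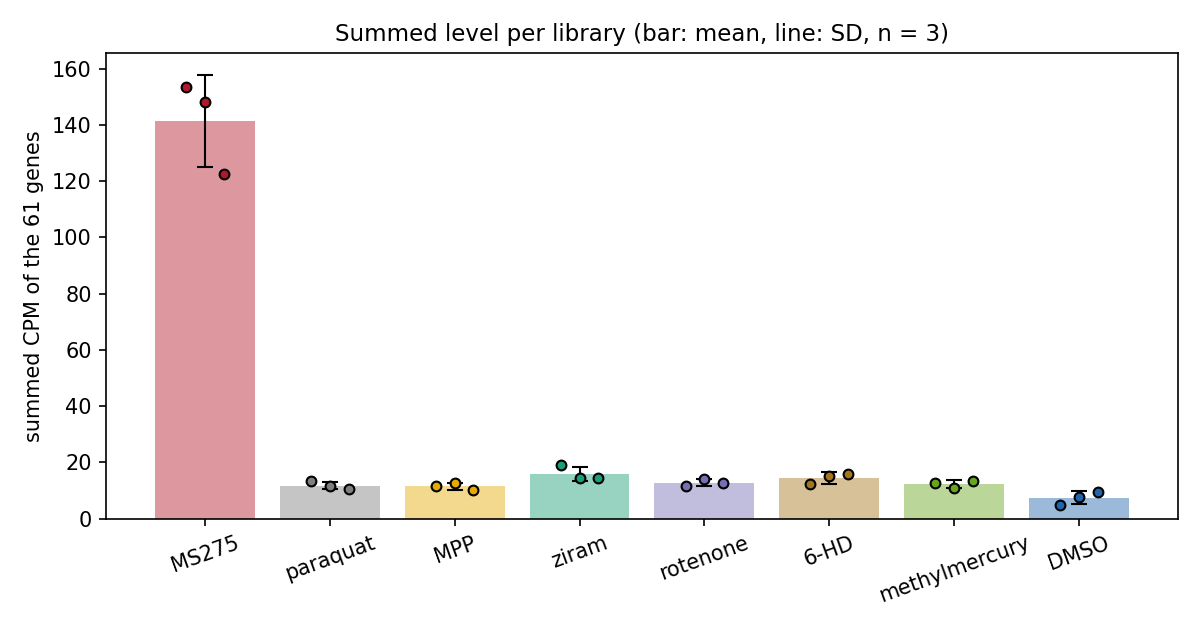
Summed CPM of the 61 genes in each library (points), with the group mean (bar) and SD (line, n = 3), on a linear axis from 0. MS275 stands at 141 ± 16.4 CPM, no library of the 6 other toxicants exceeds 18.9 CPM, and DMSO stands at 7.42 ± 2.34 CPM.

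Gene by gene, 56 of the 61 members were lower in all 18 libraries of the 6 other toxicants than in their lowest MS275 library. The rule favours this, since it sets the members' MS275 level, and 14.2% of all 18852 genes tested were likewise higher in every MS275 library than in those 18. The 5 exceptions were CD6, P2RX1, FRMD1, CSPG4P13 and RP1L1. Pooled over those 18 libraries the members stood at 0.0620 to 0.604 CPM (median 0.218), and 28 were under 0.2 CPM. MS275 exceeded that pooled level by 2.33 times for CSPG4P13, the lowest of the 61, and by 51.3 times for ARSI, the highest. Of the 1098 values of a member in a library, 243 (22.1%) were 0 reads and 18 (1.64%) reached 1 CPM. These 18 values came from 9 genes, with 5 from CSPG4P13 and 3 from PCSK1.

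**Figure D4:**
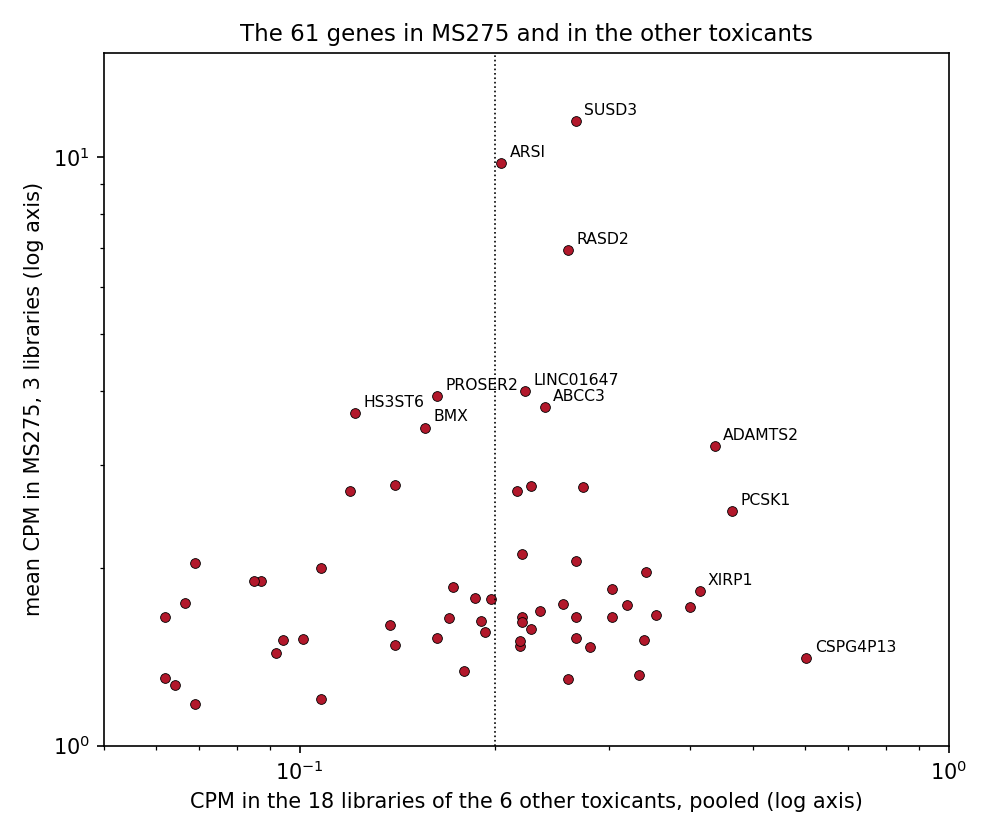
Mean CPM in MS275 (vertical) against pooled CPM over the 18 libraries of the 6 other toxicants (horizontal), 1 point per gene, both axes logarithmic, with a dotted line at 0.2 CPM. SUSD3, ARSI and RASD2 stand above the rest in MS275 without being high elsewhere, and CSPG4P13 lies farthest right at 0.604 CPM.

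Members with 0 reads were unevenly spread over libraries. They numbered 27, 30 and 26 of 61 in rotenone, 3, 1 and 3 in ziram, 14, 2 and 14 in paraquat, 6, 7 and 15 in MPP, 9, 16 and 29 in 6-HD, 4, 30 and 7 in methylmercury and 24, 10 and 6 in DMSO. Rotenone library 1 held 24701772 reads and 27 members at 0, whereas methylmercury library 1 held 23398234 reads and 4 members at 0. Their summed levels were 11.6 and 12.7 CPM. The part of library preparation in this difference was not tested.

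Whether the members also moved in the other toxicants was tested with edgeR's quasi-likelihood test over all 18852 genes that passed its expression filter, with Benjamini-Hochberg adjustment at 0.05. All 61 members passed that filter, which their MS275 libraries alone could satisfy. In MS275 against DMSO the fit called 43.2% of all genes, 20.1% higher and 23.01% lower, and all 61 members, from which nothing is read because the rule used that contrast. Against DMSO, 1 member was called in rotenone, in the higher direction, where 5.52% of all genes were called and 2.76% were higher. No member was called in paraquat (0.0% of all genes called), MPP (10.8%), ziram (0.53%), 6-HD (0.0106%) or methylmercury (0.286%), where 2, 5, 9, 8 and 5 members had an unadjusted p under 0.05 in edgeR. At that unadjusted level these were 3.28%, 8.20%, 14.8%, 13.1% and 8.20% of the members, against 0.965%, 24.1%, 6.49%, 5.70% and 11.5% of all genes.

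Limma-voom called 0 members in each of these contrasts, where it called 0.0% of all genes in paraquat, 12.5% in MPP, 0.785% in ziram, 5.24% in rotenone, 0.0106% in 6-HD and 0.239% in methylmercury. DESeq2 called 3 of the 16 members with an adjusted p in MPP (ABCC3, HS3ST6 and SNX20), where it called 16.2% of all genes, and 1 of 61 in rotenone (7.34% of all genes). It called 0 of 61 in paraquat (0.0% of all genes) and 0 of 4 in ziram (1.19%). The median difference of the 61 members from DMSO was 0.54 on the log2 scale in paraquat, 0.62 in MPP, 0.97 in ziram, 0.43 in rotenone, 0.68 in 6-HD and 0.60 in methylmercury, while the median over all genes was within 0.01 of 0 in each. These contrasts share the 3 DMSO libraries that were chosen to be low, so neither the common sign nor a call in them is read as a response.

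A contrast that holds neither MS275 nor DMSO, whose libraries enter only the filter and the shared estimate of the spread, sets each toxicant against the mean of the 5 others. In ziram 2 members were called, both higher, where 3.97% of all genes were called and 2.38% were higher. In rotenone 2 were called, 1 in each direction, where 8.61% were called, 4.44% higher and 4.17% lower. Methylmercury had 1 member called, higher, where 3.97% were called and 1.94% were higher. No member was called in paraquat (0.313% of all genes), MPP (18.9%) or 6-HD (0.637%), where 4, 3 and 10 members had an unadjusted p under 0.05 in edgeR. These were 6.56%, 4.92% and 16.4% of the members, against 9.74%, 30.9% and 12.6% of all genes. Limma-voom called 0 members in paraquat (0.483% of all genes), 1 in MPP (21.1%) and 0 in 6-HD (0.562%). DESeq2 called 0 of the 1 member with an adjusted p in paraquat (1.85% of all genes), 0 of 53 in MPP (22.2%) and 0 of 61 in 6-HD (1.51%). The members were chosen to be low in DMSO and were also low in these 6 toxicants, on which the rule set no limit. At such levels their share of calls is not read against that of all genes. The 61 members had a median difference of 0.56 on the log2 scale in ziram and -0.28 in rotenone, with the other 4 toxicants between 0.15 and 0.24.

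The 4 genes called were all under 1 CPM on average in the group concerned and are named because their number is small. PHLDA2, an imprinted gene that restrains growth of the placenta, had 0.543, 0.491 and 0.363 CPM in ziram, against 0 to 0.275 CPM over the 15 libraries of the 5 other toxicants. No library overlapped, and the log2 difference was 2.28 ± 0.57 (SE; edgeR adjusted p = 0.0180). The call was lost without any 1 of the 3 ziram libraries, with an edgeR adjusted p of 0.164, 0.112 and 0.0692. The non-coding RNA LY86-AS1 had 11, 10 and 13 reads in ziram and at most 4 reads in any of the other 15 libraries. Scaled to depth the gap was narrow, with 0.373, 0.213 and 0.429 CPM in ziram and up to 0.206 CPM in rotenone library 2. Its difference was 2.66 ± 0.73 (SE; edgeR adjusted p = 0.0317), with an edgeR adjusted p of 0.190, 0.0699 and 0.188 when each ziram library was left out in turn. That call was also lost without paraquat library 2, MPP library 1 or 6-HD library 1 or 2 (edgeR adjusted p = 0.0506 to 0.0575).

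CD6 had 0, 5 and 21 reads in rotenone (0, 0.516 and 1.70 CPM), against 1, 1 and 2 reads in DMSO. Most of its rotenone reads came from library 3, and rotenone library 1 was lower than every DMSO library. It was the member called in rotenone against DMSO, from which nothing is read because its DMSO level helped to choose it. Against the other 5 toxicants the log2 difference was 2.14 ± 0.65 (SE; edgeR adjusted p = 0.0358), but limma-voom gave -0.013 (limma-voom adjusted p = 0.995). Without rotenone library 3 the difference was 0.33 (edgeR adjusted p = 0.882). The call was also lost without paraquat library 2 or 3, MPP library 2, ziram library 2 or 3 or rotenone library 2 (edgeR adjusted p = 0.0503 to 0.0598). With the replicate number as a block the edgeR adjusted p was 0.0778.

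ADH1C had 2, 17 and 15 reads in methylmercury (0.0855, 1.17 and 0.455 CPM) and 0 reads in all 3 rotenone libraries. The other 4 toxicants held 0 to 0.299 CPM of it per library. In methylmercury the log2 difference from the 5 others was 2.67 ± 0.68 (SE; edgeR adjusted p = 0.0225), and it was 1.76 (edgeR adjusted p = 0.458) without methylmercury library 2 and 1.58 with limma-voom (adjusted p = 0.126). In rotenone ADH1C was lower than in the 5 others (edgeR adjusted p = 0.0430, 0.0550 with the replicate block and 0.164 in limma-voom), with a fitted difference that depends on the prior count because the group is at 0. That call was lost without any 1 rotenone library, paraquat library 2, MPP library 2 or 3, ziram library 2 or 6-HD library 1 (edgeR adjusted p = 0.0501 to 0.116).

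**Figure D5:**
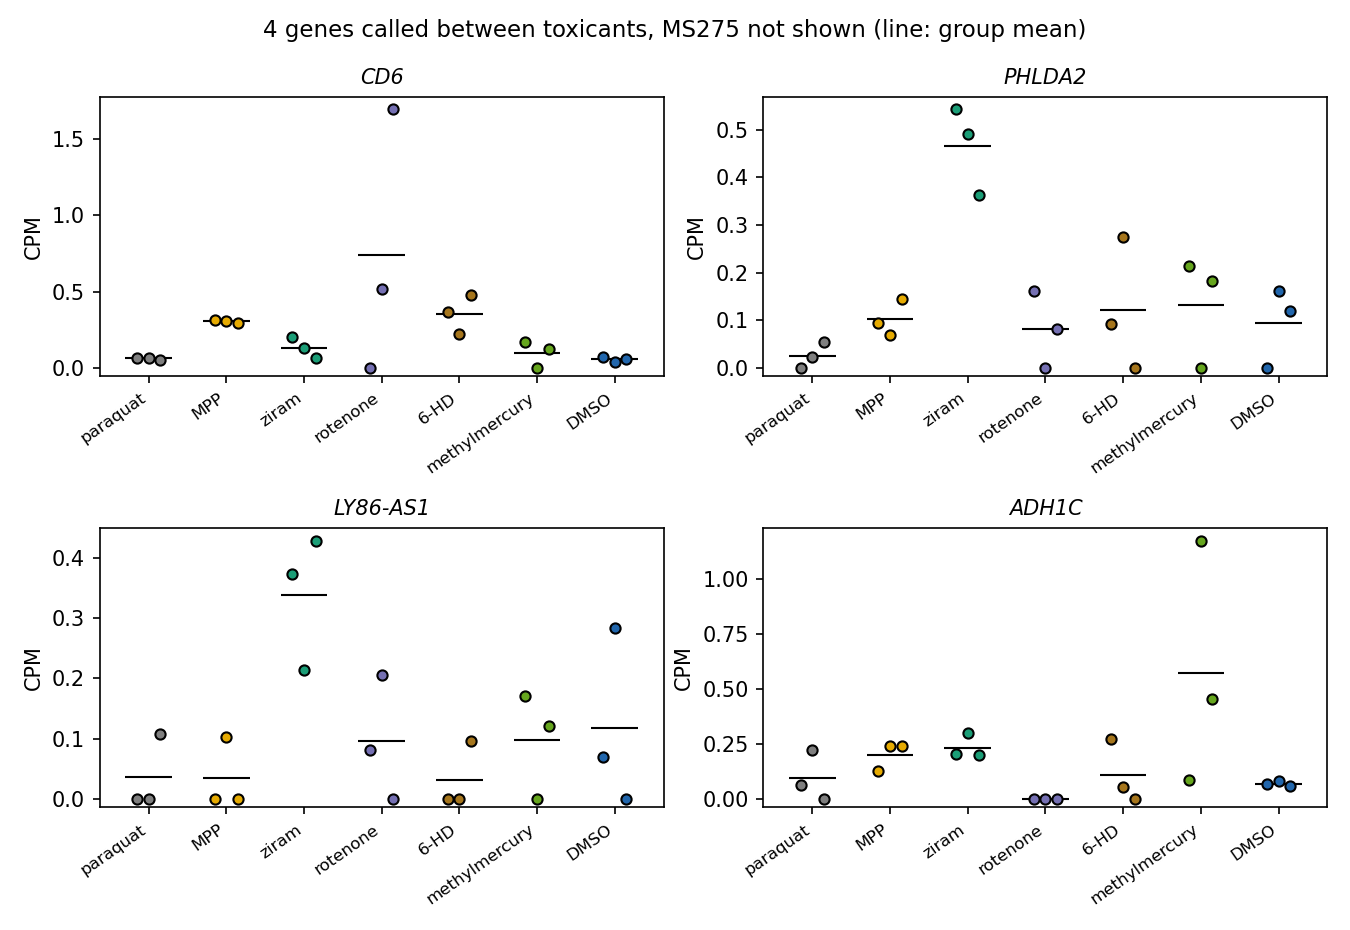
CPM of the 4 members called between toxicants (CD6, PHLDA2, LY86-AS1 and ADH1C) in each library of the 6 other toxicants and DMSO (points) with the group mean (line), each panel on its own linear axis from 0. The ziram points of PHLDA2 lie apart from the other toxicants, whereas the rotenone points of CD6 spread from 0 to 1.70 CPM.

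Relatives of the 4 marker genes were followed in MS275 against DMSO with the same edgeR fit. Of 12 other Ras-like small GTPases tested, 9 rose and 1 fell, against 20.1% and 23.01% of all genes. RASL12, a Ras-like protein, rose 13.2-fold with 6.52 ± 2.06 CPM in MS275 and 0.508 ± 0.166 CPM in DMSO (edgeR adjusted p = 1.78e-05). RASD1, the closest relative of RASD2, rose 4.27-fold with 40.1 ± 7.86 CPM in MS275 and 9.27 ± 1.03 CPM in DMSO (edgeR adjusted p = 1.23e-09). RRAD, an inhibitor of calcium channels, rose 6.86-fold and its relative GEM 4.26-fold. The gene that fell was REM2, and that call was lost with RLE size factors, with DESeq2, and without any 1 DMSO library or MS275 library 3.

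Of 19 other heparan sulfate enzymes tested 7 rose and 3 fell, against 20.1% and 23.01% of all genes. Of the lower calls 1 was left under RLE size factors and DESeq2. The extracellular 6-O-endosulfatases SULF1 and SULF2 rose 4.17-fold and 2.68-fold. SULF1 averaged 23.2 ± 2.03 CPM in MS275 and 5.47 ± 0.312 CPM in DMSO (edgeR adjusted p = 6.25e-10). EXTL1, a glycosyltransferase of the exostosin family, rose 3.88-fold, whereas the 2-O-sulfotransferase HS2ST1 fell to 0.678 of its DMSO level (edgeR adjusted p = 0.00301). Among the other 3-O-sulfotransferases, HS3ST1, HS3ST2, HS3ST3A1, HS3ST3B1 and HS3ST5 did not pass the test, with fold changes of 0.930 to 1.33, and HS3ST4 had 0, 2 and 0 reads in MS275 and 0 reads in DMSO.

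Of 14 other sulfatases and their activating enzymes, 2 rose and 3 fell, with 1 higher without MS275 library 2, against 20.1% and 23.01% of all genes. The steroid sulfatase STS rose 1.88-fold, and SUMF1, which converts the catalytic cysteine of all sulfatases, fell to 0.561 of its DMSO level (edgeR adjusted p = 0.000234). Of 5 other SUSD genes, SUSD2 and SUSD6 rose 1.56-fold and 1.52-fold, and SUSD1 fell to 0.721. That lower call was lost without MS275 library 1.

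Of 26 genes of class I deacetylases and their corepressors, 4 rose and 12 fell, against 20.1% and 23.01% of all genes. HDAC1, HDAC2 and HDAC3 did not pass the test, at fold changes of 1.05, 1.02 and 0.959. The scaffold SIN3A fell to 0.410 of its DMSO level, with 22.9 ± 4.08 CPM in MS275 and 54.7 ± 0.646 CPM in DMSO (edgeR adjusted p = 1.24e-09), and its partner SAP30 fell to 0.379.

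Markers of other cell types were checked because many members are known outside the nervous system. Beside the counts below stand the 20.1% of all genes that were higher in MS275 and the 23.01% that were lower. A marker silent in DMSO can pass the expression filter through its MS275 libraries, and it could then hardly be called lower. Where such markers were tested, the absence of markers that fell is partly set by the filter. Of 11 tested blood and immune markers 8 rose and 0 fell (5 higher without DMSO library 1 or 3), and the 36 markers summed to 49.0 to 51.2 CPM in MS275 and 20.3 to 22.4 CPM in DMSO. The macrophage markers CD68 and TREM2 and the globin gene HBB had 0 reads in either group. Of 11 endothelial markers tested 8 rose and 0 fell, and the 16 markers summed to between 269.6 and 439 CPM in MS275 and between 103 and 109.9 CPM in DMSO. The tight junction gene CLDN5 made up most of that sum, with 260 ± 77.9 CPM in MS275 and 57.4 ± 5.65 CPM in DMSO, and SOX17 had 0 reads in either group.

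For the counts that follow, the shares of all genes are again 20.1% higher and 23.01% lower. Of 29 epithelial markers 19 were silent in DMSO, and of 25 liver markers 24, so the limit given above holds here too. Of 13 epithelial markers tested 6 rose and 0 fell, of 27 striated muscle markers 9 rose and 0 fell (15 higher with those 2 groups fitted alone), and of 3 liver markers 1 rose. Their sums were 78.6 to 103 CPM, 480 to 571 CPM and 8.53 to 9.76 CPM in MS275, against 39.2 to 44.2 CPM, 342 to 369 CPM and 3.44 to 3.85 CPM in DMSO. Of 6 testis and germ line markers tested 1 rose, TEX15, a call lost without DMSO library 1 or 2 or MS275 library 1 or 3 and with the replicate block. 36 of the 42 testis and germ line markers were silent in DMSO, and 0 of them was a member. Of 15 glial markers besides AQP4, 10 rose and 2 fell, and the 22 markers summed to 387 to 444 CPM in MS275 and 334 to 358 CPM in DMSO. Of 11 dopaminergic markers besides LMX1B, 7 rose and 1 fell, among them NR4A2 at 2.69-fold and EN1 at 0.639 of DMSO, which was not called without DMSO library 2. Of 17 markers of other transmitter types 8 rose and 1 fell, while the 38 markers summed to 502 to 540 CPM in MS275 and 572 to 596 CPM in DMSO. The part of other cell types in the members' levels was not tested.

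Members lay on 21 chromosomes, with 7 on chromosome 11, 6 on chromosome 5 and 5 on chromosome 1. Besides CD5 and CD6, the pairs within a megabase were BARX1 and SUSD3 on chromosome 9, 866484 bases apart, and VENTX with LINC01165 on chromosome 10, 714955 bases apart. Other members and genes overlapping the member itself were skipped when the nearest tested gene on either side of each member was looked up. The median distance was 31294 bases. Of these 120 neighbours 60 (50.0%) were higher in MS275 and 14 (11.7%) lower by edgeR, against 20.1% and 23.01% of all genes. Their median log2 difference was 0.51, against 0.04 over all genes. Genes that failed the expression filter were skipped, and a neighbour could pass it through its MS275 libraries alone. CHST9 next to AQP4, for example, averaged 0.619 CPM in MS275 and 0.120 CPM in DMSO. Such a gene could hardly be called lower, so these shares are a description and are not read as an excess. Next to ARSI, the kinase gene CAMK2A rose by 1.24 on the log2 scale (edgeR adjusted p = 2.60e-06), and TCOF1 on the other side was at -0.18 (adjusted p = 0.239). Next to HS3ST6, MEIOB, a meiotic gene, rose by 2.04 (edgeR adjusted p = 7.95e-06) and MSRB1 by 0.42 (adjusted p = 0.00508). Next to SUSD3, FGD3 rose by 1.44 (edgeR adjusted p = 3.52e-08), and CARD19 was at 0.15 (adjusted p = 0.328). Beside RASD2 the helicase gene MCM5 fell by 1.10 (edgeR adjusted p = 9.07e-09), and the myoglobin gene MB was at 0.43 (adjusted p = 0.698).

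Annotation features were compared as descriptions. CPM is not divided by length, so the MS275 limit favours genes with long exons, and exon length is tied to the rule. Of the 20367 named genes silent in DMSO, 10261 had 0 reads in all 24 libraries, and these count among the genes that stayed silent. Of the 61 members 82.0% were protein-coding, against 22.3% of the 18983 genes that stayed under 0.2 CPM in MS275 and 94.6% of the 12748 genes at 1 CPM or more in each DMSO library. Among protein-coding genes, the observed over expected CpG ratio in the first 300 bases of the longest transcript had a median of 0.515 in the 50 members, 0.334 in 4242 genes that stayed silent and 0.750 in 12063 genes that were on in DMSO. The ratio reached 0.6 in 36.0%, 22.7% and 68.3% of these 3 sets. Median GC content of the longest transcript was 58.0% in the members, 48.6% in the silent genes and 48.1% in the genes that were on. Median exon length was 3746 bases in the members, 2253 in the silent genes and 5279 in the genes that were on.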

How the data were processed

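STAR, HTSeq, DESeq and the build GRCh38 are named in the submitters' processing notes. Which versions, annotation and strand setting went with them is not given in the sources used here. Raw counts were deposited by the authors for 58051 genes in 24 libraries, with a normalized signal in which the counts are divided by a factor per library (100% returned to whole counts within 0.01). The counts were used here. All members and gene lists were chosen with earlier results of these data known.

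CPM is the count over the library total, which TMM or RLE scaled totals replaced as alternatives. Tests were run in edgeR 4.0.16 (R 4.3.3, limma 3.58.1) with TMM scaling, its default filter (18852 genes), 1 coefficient for each of 8 groups (16 residual degrees of freedom), the quasi-likelihood test and Benjamini-Hochberg adjustment over all genes, and were tested on simulated data. DESeq2 1.42.0, limma-voom, no filter, other scalings, the 2 groups alone, a replicate block and leaving out each library were alternatives. Python 3.11.15, scipy 1.17.1 and matplotlib 3.10.9 were also used.

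A gene without an HGNC symbol was read as a clone or identifier. Gene spans, types and transcripts came from GENCODE 29 (57447 genes and all 61 members matched), promoters from RefSeq. Named genes were the 4 markers, the 20 members with most MS275 reads, members called in a test, members in a gene list and those nearest each threshold, without clone names. The 15 lists were the relatives of the 4 markers, class I deacetylases with corepressors, responders to their inhibition, and markers of 9 cell types. Of 7 responders to deacetylase inhibition, 5 rose and 0 fell in MS275, against 20.1% and 23.01% of all genes.

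The reported tests have no term for the replicate number and so ignore any pairing by it. A block for this number was an alternative only. Deviations of same-numbered libraries of MS275 and DMSO correlated at 0.100, 0.129 and 0.132 across genes. The other toxicants had no such correlation in all 3 numbers.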

Additional observations from a re-analysis of the deposited data

How the results depend on the processing

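The number of genes that met the rule was 61, and it became 21 or 218 with a DMSO limit of 0.1 or 0.5 CPM and 224 or 12 with an MS275 limit of 0.5 or 2 CPM. It ran from 54 to 103 when 1 library was left out, with 103 without MS275 library 3. Members called in MPP against DMSO numbered 2 with no filter, 3 with DESeq2, 1 with those groups fitted alone (1 member tested) and 0 to 1 when 1 library was left out. In ziram against DMSO 1 was called with those groups alone (6 tested). In rotenone against DMSO the count was 0 with limma-voom and 0 to 1 when 1 library was left out. Against the other 5 toxicants, limma-voom called 1 in MPP, 0 in rotenone and 0 in methylmercury, and DESeq2 called 0 of the 16 members with an adjusted p in ziram and 0 of 1 in methylmercury. It gave no adjusted p to PHLDA2 and LY86-AS1 in ziram or to ADH1C in methylmercury. With 1 library left out these counts ran from 0 to 2 in rotenone and in ziram, and from 0 to 1 in methylmercury and in 6-HD. CD6 in rotenone against the other 5 toxicants turned to -0.013 on the log2 scale with limma-voom. The cause of these changes was not tested.

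With the replicate number as a block, 0 members were called in rotenone against DMSO and 0 in rotenone against the other 5 toxicants, and the other contrasts kept their counts. Of the 21 toxicant libraries, 6 correlated best with the DMSO library of their own number. These were all 3 in MS275, 1 of 3 in paraquat and 2 of 3 in MPP, with 0 in ziram, rotenone, 6-HD and methylmercury. For lists in MS275 the block gave 0 testis markers higher and 2 markers of other transmitter types lower. Fits of those groups alone tested 0 members in paraquat, rotenone, 6-HD and methylmercury, and DESeq2 gave no member an adjusted p in 6-HD or methylmercury against DMSO, so they have no count.

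Of the counts of members under an alternative, 189 stayed within 1.5 times the reported count and 39 did not. The 189 include counts of 0 that stayed at 0, and the tally also holds alternatives of the rule itself. An equal count can also hold other members. Without rotenone library 3, PCSK1 and CAVIN1 were called in rotenone against the other 5 toxicants in place of CD6 and ADH1C. In the 6 other toxicants 22.1% of the members' values were 0 reads, and the part of depth in this was not tested.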
